A study of Mus musculus with 4 samples.

Results

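Immune checkpoint ligands and receptors were described here through 10 genes of the 32285 in the count matrices, namely Cd274, Pdcd1lg2, Cd47, Cd24a, Lgals9 and Pvr on the ligand side and Pdcd1, Lag3, Havcr2 and Tigit on the receptor side. The genes were chosen by symbol, and each was counted in every library in 4 classes of cells gated by marker transcripts: tumour-gated, T-gated, B-gated and myeloid-gated cells. All 10 symbols matched 1 row each.

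Checkpoint molecules are surface or secreted proteins that hold back immune cells. Cd274 (PD-L1) and Pdcd1lg2 (PD-L2) are the ligands of Pdcd1 (PD-1) on activated T cells, Pvr binds the inhibitory receptor Tigit as well as Cd96 and the activating receptor Cd226, and Lgals9 (galectin-9) binds Havcr2 (TIM-3). Lag3 binds MHC class II and several other ligands. Cd47 and Cd24a address phagocytes instead, because Cd47 binds Sirpa on macrophages and Cd24 is recognised by sialic acid-binding lectins such as Siglecg in the mouse. Drugs that block the PD-1 axis are used in the clinic, and blockers of the others have been developed.

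The samples were tumour tissue from Swiss albino mice that had received cells of DLA (Dalton's lymphoma ascites, a transplantable mouse tumour line) into the peritoneum, profiled by droplet-based 3′ single-cell RNA sequencing. Control 1 and Control 2 are the 2 libraries from untreated animals. SP11 1 and SP11 2 came from animals dosed by mouth with SP11, an HSP90 inhibitor, at 30 mg/kg for 17 days. All 4 tumours were grafts of this line, and the labels name no other allele or agent. The study's methods call the libraries independent sets, the labels do not name animals, ages or sexes, and p-values measure the spread between these libraries. Tests of T-gated cells rest on SP11 2 alone, so their p-values hold no spread between libraries of T-gated cells.

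The libraries held 9646197 to 13632163 UMIs (unique molecular identifiers, each standing for 1 captured transcript) in 595 to 2277 barcodes, of which 566 to 1831 had at least 200 genes and at most 10% mitochondrial UMIs. A barcode with at least 5 UMIs of the keratins Krt8 and Krt18 was called tumour-gated, which took 845 and 528 barcodes in Control 1 and Control 2 and 1256 and 582 in SP11 1 and SP11 2. Myeloid-gated cells numbered 38, 24, 249 and 199 in the same order, T-gated cells 10, 1, 16 and 83, and B-gated cells 0, 0, 146 and 135. The labels name the cell type as Lymphoma, but the tumour-gated cells of the controls held 26481 and 16393 UMIs of the epithelial markers Epcam, Cdh1, Krt19 and Krt7, no UMI of the B cell gene Pax5, and 9 and 2 UMIs of the T lymphoma markers Cd3e, Cd2, Cd5 and Ptprc, so they are called by their gate below. Tumour-gated barcodes that also passed an immune gate made up 1.18% and 0.568% in the controls and 11.9% and 8.42% in the SP11 libraries. Of 4353 distinct barcode sequences, 896 occurred in 2 or more libraries, and results that turn on Cd274 are given without them as well.

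All 10 members are annotated as protein-coding genes, and 7 of them overlap no other gene (GENCODE M21 on GRCm38, the build that mm10 names). Cd274 spans chr19:29367455-29388095 on the plus strand and lies next to Pdcd1lg2 at chr19:29410919-29471161, also on the plus strand. Each of these neighbours overlaps an antisense gene, AC119228.1 for Cd274 and A930007I19Rik for Pdcd1lg2. Cd47 lies at chr16:49800533-49915010 (plus), Tigit at chr16:43648867-43664146 (minus), Lgals9 at chr11:78962974-78984946 (minus), Havcr2 at chr11:46454935-46481255 (plus), Cd24a at chr10:43578284-43584265 (plus) and Pdcd1 at chr1:94038305-94052553 (minus). Pvr at chr7:19903578-19921160 (minus) overlaps the pseudogene Gm16184 and the antisense gene Gm16251. Lag3 lies at chr6:124904361-124911705 (minus), and its upstream neighbour on the same strand, Ptms, ends 1975 bases before it. Ptms was abundant in tumour-gated cells, at 123 to 173 CPM, where CPM are the UMIs of a gene per 1000000 UMIs summed over a class of a library.

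RefSeq promoters of 300 bases (250 before the start and 50 after, GRCm38.p6) were found for 7 of the 10 members and not for Lag3, Cd24a and Pvr. The 4 printed here belong to the members on which the results turn: Cd274, the member that differed with treatment, Cd47 and Lgals9, the ligands with the broadest detection, and Tigit, the receptor with the most UMIs. Capitals mark 2 kinds of motif searched on both strands, the GC box GGGCGG and the core of the interferon response element, which is GAAA, any 2 bases and GAAA again, or on the other strand TTTC, any 2 bases and TTTC.
Cd274 (chr19:29367188-29367487, plus): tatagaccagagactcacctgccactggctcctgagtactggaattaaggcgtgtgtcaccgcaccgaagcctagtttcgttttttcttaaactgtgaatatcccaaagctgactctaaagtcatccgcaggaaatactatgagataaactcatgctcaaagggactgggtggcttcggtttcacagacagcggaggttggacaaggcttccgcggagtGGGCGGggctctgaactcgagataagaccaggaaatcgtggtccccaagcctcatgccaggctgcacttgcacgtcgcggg
Cd47 (chr16:49855404-49855703, plus): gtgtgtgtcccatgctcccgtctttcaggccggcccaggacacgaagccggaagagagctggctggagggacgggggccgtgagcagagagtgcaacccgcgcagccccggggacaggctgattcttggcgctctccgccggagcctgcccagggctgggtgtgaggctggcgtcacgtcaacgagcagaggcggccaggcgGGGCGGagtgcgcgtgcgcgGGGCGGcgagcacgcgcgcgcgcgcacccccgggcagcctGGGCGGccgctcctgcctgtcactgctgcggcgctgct
Lgals9 (chr11:78984875-78985174, minus): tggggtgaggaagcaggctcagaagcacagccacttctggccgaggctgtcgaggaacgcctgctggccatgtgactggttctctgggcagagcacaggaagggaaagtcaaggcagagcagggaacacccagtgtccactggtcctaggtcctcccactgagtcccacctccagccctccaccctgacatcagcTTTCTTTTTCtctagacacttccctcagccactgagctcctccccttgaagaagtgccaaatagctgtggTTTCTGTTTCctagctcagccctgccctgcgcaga
Tigit (chr16:43664135-43664434, minus): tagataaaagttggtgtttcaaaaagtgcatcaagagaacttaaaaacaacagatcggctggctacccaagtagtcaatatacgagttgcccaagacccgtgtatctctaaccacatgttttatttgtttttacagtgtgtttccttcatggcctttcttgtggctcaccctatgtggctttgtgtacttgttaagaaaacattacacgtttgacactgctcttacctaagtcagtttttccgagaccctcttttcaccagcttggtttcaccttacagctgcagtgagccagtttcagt
The Cd47 window held 35 CG dinucleotides and 3 GC boxes, and 93.0% of the 32851 promoters in the table had fewer CG. Cd274 held 15 CG and 1 GC box, Tigit 5 CG and no GC box, and Lgals9 4 CG. The GC box occurred in 35.7% of all promoters of this length. Both interferon element matches among the 7 members were in Lgals9, and 3.44% of all promoters held at least 1. Neither the gamma-activated site TTCNNNGAA, present in 8.3% of all promoters, nor the TATA box TATAAA, present in 13.6%, was found in these letters in any of the 7 windows.

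Tumour-gated cells held 96.0% of all UMIs in kept barcodes, myeloid-gated cells 1.76%, B-gated cells 0.887% and T-gated cells 0.231%, and the members' shares are read against these. Of the 4998 Cd47 UMIs in kept barcodes 91.2% were in tumour-gated cells, as were 86.6% of 1028 for Cd24a, both below the share of all UMIs, and 98.4% of 1210 for Pvr, near it. Cd274 was distributed otherwise, with 46.6% of its 283 UMIs in myeloid-gated, 26.9% in tumour-gated and 11.7% in B-gated cells. The 4 receptors had 11 (Pdcd1), 39 (Lag3), 48 (Havcr2) and 60 (Tigit) UMIs in all kept cells. The ligand Pdcd1lg2 had 33, fewer than 3 of the receptors.

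**Figure D1:**
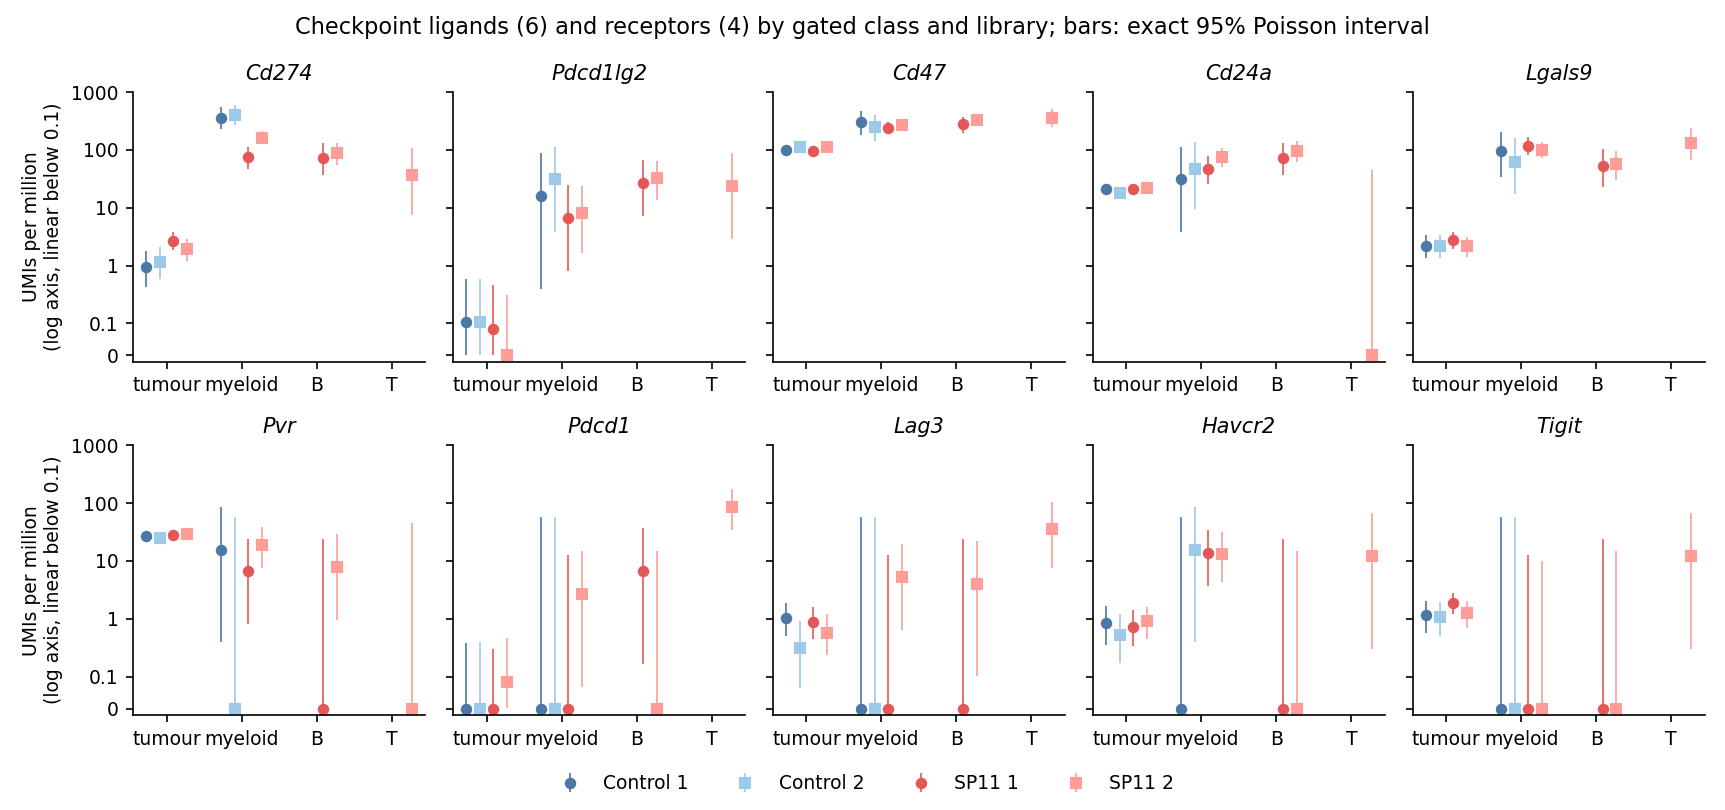
CPM (log axis, linear below 0.1) of the 10 members in the tumour-, myeloid-, B- and T-gated cells of each library, for sums of at least 20 cells, with exact 95% Poisson intervals that cover counting error only. Cd274 and Lgals9 lie far lower in tumour-gated than in myeloid-gated cells, Pvr does not, and the receptors in the lower row are mostly near 1 CPM in tumour-gated cells.

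Cd47, the ligand that restrains phagocytosis, was the most abundant member in the tumour-, B- and T-gated sums of at least 20 cells, and was higher in immune than in tumour-gated cells in CPM but lower in UMIs per cell. Its level in tumour-gated cells was 99.6 CPM in Control 1, 112 in Control 2, 93.8 in SP11 1 and 114 in SP11 2. In myeloid-gated cells it was 297, 250, 243 and 264, in B-gated cells 276 and 324 in the SP11 libraries, and in the 83 T-gated cells of SP11 2 it was 362. Every immune sum of at least 20 cells was above every tumour sum. In 1 fit over the 11 class sums of at least 20 cells with library as a block (edgeR's quasi-likelihood test with Benjamini-Hochberg adjustment over 6969 genes), Cd47 was higher in CPM than in tumour-gated cells by 1.22 ± 0.17 (log2, SE) in myeloid-gated (adjusted p = 2.09e-06), 1.58 ± 0.21 in B-gated (3.48e-06) and 1.34 ± 0.32 in T-gated cells (0.00457). The T-gated value came from SP11 2 alone and missed the threshold without the filter on low counts, at 1.12 (0.0639).

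Cd24a, a small sialylated surface protein, followed the same order, higher in myeloid- and B-gated than in tumour-gated cells in CPM but lower per cell. It stood at 20.7, 18.1, 20.8 and 21.6 CPM in tumour-gated cells of Control 1, Control 2, SP11 1 and SP11 2. In myeloid-gated cells it was 31.3, 46.8, 47.2 and 74.7 and in B-gated cells 72.3 and 96.0. Every myeloid- and B-gated value was above every tumour value. The control myeloid values rested on 2 and 3 UMIs, however. Their exact 95% Poisson intervals, 3.79 to 113 and 9.66 to 137 CPM, included the tumour levels. The differences from tumour-gated cells were 1.33 ± 0.30 in myeloid-gated (adjusted p = 0.000675, edgeR) and 2.00 ± 0.36 in B-gated cells (0.000131). Both were no longer called without SP11 2, at 1.07 (0.117) and 1.98 (0.077). No Cd24a UMI was seen in the 83 T-gated cells of SP11 2. A count of 0 in this sum allows up to 36.2 CPM at the floor of 3 counts and 44.6 CPM by the exact 95% Poisson interval, against 96.0 in B-gated and 74.7 in myeloid-gated cells of the same library with lower bounds of 61.5 and 49.6. A difference from tumour-gated cells was not detectable at this depth. Cd24a was 1 of 5 members tested and the only one called lower in T-gated than in myeloid-gated cells (adjusted p = 0.0419, against 5.07% of all genes) and than in B-gated cells (0.0295, against 1.42% of all genes). The former was not called without the filter on low counts (0.0642).

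The direction for Cd47 and Cd24a depended on the scale. Immune-gated cells held far fewer UMIs than tumour-gated cells, with medians of 871.5 to 2355 per cell in myeloid- and B-gated cells against 8891.5 to 19843 in tumour-gated cells. Counted per cell, Cd47 averaged 1.14, 2.01, 0.918 and 2.38 UMIs in tumour-gated cells and 0.5, 0.667, 0.289 and 0.498 in myeloid-gated cells. Cd24a averaged 0.237, 0.326, 0.204 and 0.450 UMIs per tumour-gated cell and 0.0526, 0.125, 0.0562 and 0.141 per myeloid-gated cell. On this scale tumour-gated cells were the higher class in each library. Lgals9 and Cd274 were higher in myeloid-gated cells on both scales, in each of the 4 libraries.

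**Figure D2:**
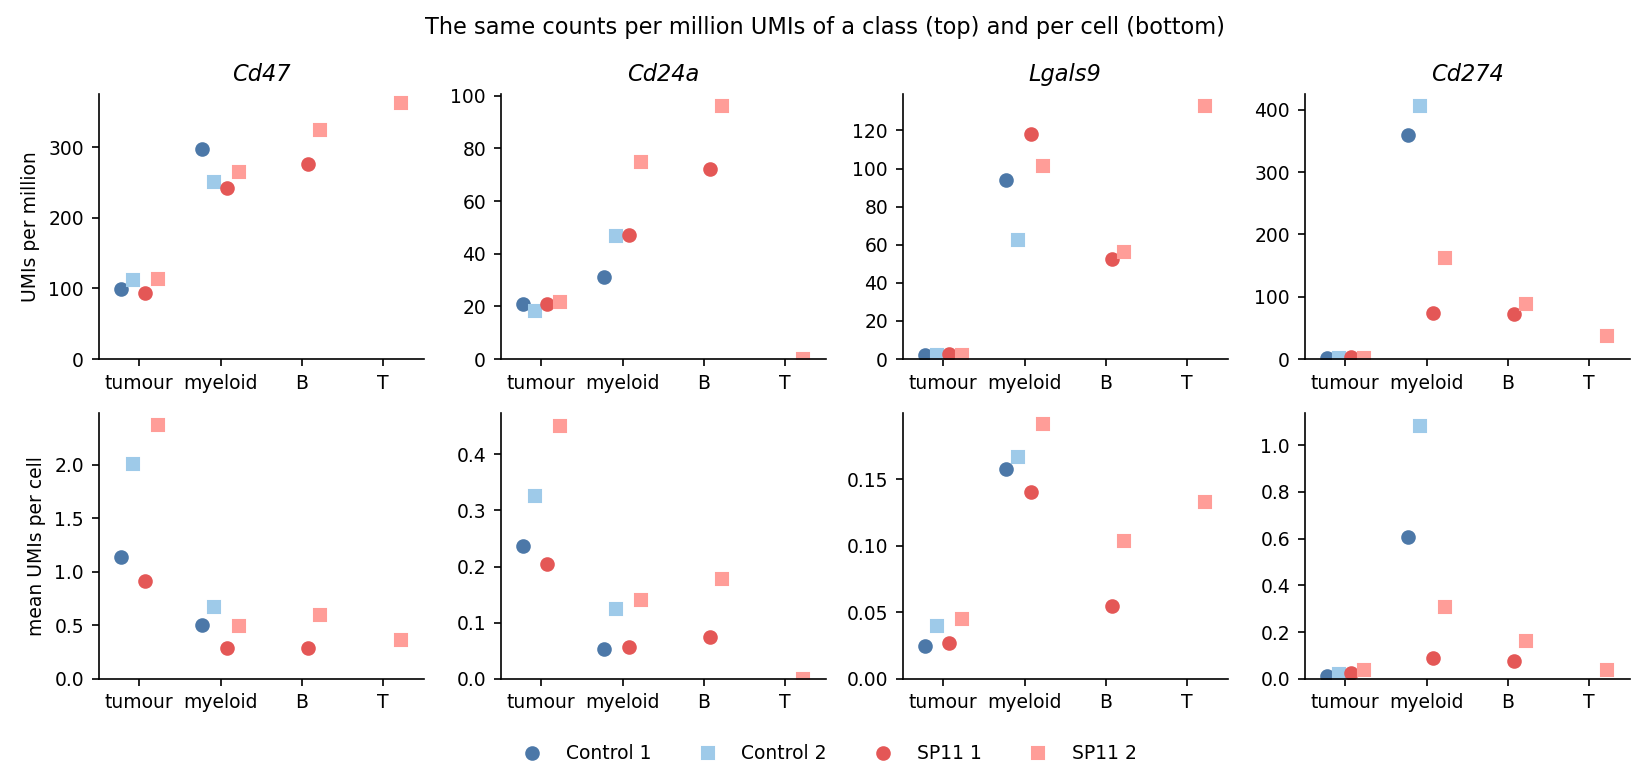
CPM of a class (top) and mean UMIs per cell (bottom) for Cd47, Cd24a, Lgals9 and Cd274 by class and library. Cd47 and Cd24a change order between the rows (Cd47 in SP11 2: 114 against 264 CPM in tumour- and myeloid-gated cells, 2.38 against 0.498 per cell), and Lgals9 and Cd274 do not.

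Lgals9, the galectin that binds TIM-3, was at 2.18, 2.22, 2.77 and 2.14 CPM in tumour-gated cells. It was at 93.9, 62.5, 118 and 101 in myeloid-gated cells, at 52.6 and 56.0 in B-gated cells and at 133 in T-gated cells of SP11 2. The myeloid-gated cells were thus set apart from the tumour-gated cells in all libraries, by 5.26 ± 0.36 on the log2 scale (adjusted p = 5.81e-11, edgeR). The B-gated difference, from the SP11 libraries only, was 4.46 ± 0.52 (5.58e-07). The T-gated difference, from SP11 2 alone, was 5.42.

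Cd274 (PD-L1) was likewise higher in myeloid- and B-gated than in tumour-gated cells, with the largest myeloid difference among the 5 members tested with the filter on low counts. Its level was 0.933, 1.16, 2.69 and 1.90 CPM in tumour-gated cells, from 9, 11, 33 and 23 UMIs. In myeloid-gated cells it was 360, 406, 74.1 and 163, from 23, 26, 22 and 61 UMIs, and in B-gated cells 72.3 and 88.0, from 11 and 22 UMIs. The myeloid-gated cells differed from the tumour-gated cells by 6.68 ± 0.44 (adjusted p = 3.35e-11, edgeR) and the B-gated cells by 5.75 ± 0.69 (9.7e-07). With the barcodes that occurred in several libraries removed, these differences were 6.26 and 5.13. The 3 Cd274 UMIs in T-gated cells of SP11 2 gave 4.08 ± 1.88 (0.118).

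Pdcd1lg2 (PD-L2) was close to absent from tumour-gated cells, with 1, 1, 1 and 0 UMIs. It had 1, 2, 2 and 3 UMIs in myeloid-gated cells and 4 and 8 in B-gated cells, or 26.3 and 32.0 CPM in the latter. The filter on low counts removed it together with Pvr, Pdcd1, Havcr2 and Tigit, which left 5 of the 10 members in the class comparison. Of these 5, 4 were higher in myeloid-gated than in tumour-gated cells (Cd274 and Lgals9, and on this scale but not per cell Cd47 and Cd24a), where 31.4% of all genes were called higher. The same 4 were higher in B-gated cells in CPM, where 21.3% of all genes were. The T-gated differences rest on SP11 2 alone, and Lag3 was tested at all only through 3 UMIs in 1 T-gated cell there. The medians of the 5 were 1.57, 2.00 and 4.08 against -0.08, -0.17 and -0.40 over all genes. Because the filter keeps genes that are high in any sum, these counts and medians of the members were partly set by it. Among the members it removed was Pvr, which was lower in myeloid- and B-gated cells in the fit without the filter, given next.

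Pvr, the poliovirus receptor homologue and ligand of Tigit, was the member with the opposite order. It stood at 26.6, 25.1, 27.6 and 29.4 CPM in tumour-gated cells from 257, 238, 339 and 357 UMIs. The myeloid-gated cells held 1, 0, 2 and 7 Pvr UMIs, the B-gated cells 0 and 2 and the T-gated cells 0, which in SP11 2 allows up to 36.2 CPM. Without the filter on low counts (edgeR over 20274 genes), Pvr was lower by 1.38 ± 0.50 on the log2 scale in myeloid-gated cells than in tumour-gated cells, with an adjusted p of 0.0224, and lower by 2.65 ± 0.87 in B-gated cells, with 0.0161. It was the only member called lower in each, where 15.5% and 10.0% of all genes were. Nectin2, another ligand of Tigit, had 131, 102, 198 and 218 UMIs in tumour-gated cells, 0, 0, 1 and 1 in myeloid-gated cells and none in B-gated cells. In the same fit Pdcd1lg2 was higher by 6.77 ± 1.28 in myeloid-gated (1.07e-06) and by 8.72 ± 1.27 in B-gated cells (2.23e-10), and 6 members in all were higher in myeloid-gated cells (13.2% of all genes) and 5 in B-gated cells (7.79%).

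Among the receptors, Pdcd1 (PD-1) was the only member with most of its UMIs in T-gated cells, 8 of 11. SP11 2 had 7 of these UMIs in 5 of its 83 T-gated cells (6.02%, 95% Clopper-Pearson interval 1.98 to 13.5), SP11 1 had 1 UMI in 16 cells, and the controls had none in 10 and 1 cells. In the other immune classes of SP11 2, 1 of 199 myeloid-gated and 0 of 135 B-gated cells held Pdcd1, at median depths of 1613 and 1686 UMIs against 858 in the T-gated cells. In SP11 1 the B-gated cells held 1 Pdcd1 UMI among 146 cells, as many UMIs as its T-gated cells. The 0 of 10 in Control 1 allows a share of up to 30.8% (Clopper-Pearson), so nothing can be read on a difference with treatment. Without the filter, Pdcd1 in T-gated cells exceeded tumour-gated cells by 9.40 ± 1.94 (adjusted p = 4.63e-05, edgeR) and was 1 of 4 members called higher there, with Lgals9, Cd274 and Pdcd1lg2 (3.67% of all genes). By lineage, 1 of the 5 Pdcd1 cells had a Cd4 UMI, none a Cd8 UMI and 4 neither, among 7 cells with Cd4, 14 with Cd8 and 62 with neither. No T-gated cell held Foxp3, the regulatory T cell factor.

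Lag3, the MHC class II-binding receptor, had 3 UMIs in T-gated cells of SP11 2, all in 1 cell. It passed the filter on low counts through this sum only, so it was tested because it was high there. It had 10, 3, 11 and 7 UMIs in tumour-gated cells, never more than 1 per cell. The T-gated sum was called higher by 5.06 ± 1.66 (adjusted p = 0.0293, edgeR) and was not called without the filter, at 4.93 (0.0731). Havcr2 (TIM-3), carried by macrophages as well as exhausted T cells, had 0, 1, 4 and 5 UMIs in myeloid-gated cells, 1 in the T-gated cells of SP11 2, and 8, 5, 9 and 11 in tumour-gated cells. Its level in CPM was higher in myeloid-gated cells, by 3.70 ± 0.94 (0.000468) in the fit without the filter.

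Of the 60 Tigit UMIs 59 were in tumour-gated cells (98.3%, where 96.0% of all UMIs were), 11, 10, 23 and 15 by library, and the last was in a T-gated cell of SP11 2. Each was the only Tigit UMI of its barcode. Of the 11, 10, 23 and 15 carrier barcodes, 0, 1, 1 and 0 also had a UMI of a T gate gene. Among all tumour-gated barcodes 10 of 845, 2 of 528, 55 of 1256 and 24 of 582 had one. The carriers held a median of 63, 55, 37 and 80 keratin UMIs against 48, 38, 30 and 60 over all tumour-gated cells. They were also deeper, with medians of 12552, 20444.5, 11744 and 23524 UMIs against 10935, 17214, 8891.5 and 19843. The part of depth in the keratin counts was not tested. The Tigit level in tumour-gated cells was low, 1.14, 1.06, 1.87 and 1.24 CPM, and the single UMI in T-gated cells of SP11 2 amounted to 12.1 CPM. A count of 0 in the myeloid-gated sums allows 47.0, 46.8, 10.1 and 8.0 CPM, so a lower level there was not detectable at this depth. Removing tumour-gated barcodes that passed an immune gate left the Tigit level at 1.15, 1.06, 2.15 and 1.26.

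Other genes of these pathways were counted from a list of 42 checkpoint genes and a list of 16 interferon-responsive genes. In the class fit, 16 of the 22 checkpoint genes that passed the filter on low counts were higher in myeloid-gated than in tumour-gated cells and none was lower (median 5.26, against -0.08 and 31.4% called higher over all genes). They included Sirpa, the receptor of Cd47, with a difference of 6.69, and the costimulatory ligand Cd86 at 7.56. The filter keeps genes that are high in any sum, so these counts and those for B- and T-gated cells were partly set by it. Without it 40 of the 42 were tested against tumour-gated cells. In myeloid-gated cells 16 were then higher (13.2% of all genes) and Nectin2 was lower (15.5% of all genes), with a median of 3.06 against -0.89. In B-gated cells 12 of 22 were higher (21.3% of all genes), among them Siglecg at 7.52 ± 0.71 (adjusted p = 6.81e-08, edgeR), and in T-gated cells 13 (11.7% of all genes), among them Icos at 9.95, Cd28 at 8.92 and Ctla4 at 5.50. Lgals3 (galectin-3) was lower in both, by 2.08 and 2.32. Of 15 interferon-responsive genes tested, 15 were higher in myeloid-gated, 13 in B-gated and 9 in T-gated cells, beside the same shares of all genes. Ctla4, the T cell receptor for Cd80 and Cd86, nonetheless had 34, 49, 66 and 43 UMIs in tumour-gated cells, or 3.52 to 5.37 CPM. Between B-gated and myeloid-gated cells 0 of the 5 members tested was called in edgeR, where 21.9% of all genes were. The Cd274 difference was -0.93 ± 0.55 (0.255), and none of the 5 was called in DESeq2 or had an unadjusted p under 0.05 in either tool. Without the filter on low counts none of the 10 was called, and Cd274 and Havcr2, both lower in B-gated cells, had an unadjusted p of 0.0158 and 0.0336 in edgeR.

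The next comparison asked whether the tumour-gated cells of SP11-treated mice differed from those of untreated mice. None of the 6 members tested was called in edgeR or DESeq2, where edgeR called 2.31% of 11588 genes (268 genes), and 1 member, Cd274, had an unadjusted p under 0.05 in edgeR. The log2 differences were -0.16 ± 0.12 for Cd47 (adjusted p = 0.598, edgeR), -0.00 ± 0.15 for Cd24a, 0.01 ± 0.13 for Pvr and 0.04 ± 0.34 for Lgals9. The mean levels of these 4 ligands were 106 ± 8.64, 19.4 ± 1.83, 25.9 ± 1.08 and 2.20 ± 0.0274 CPM in the controls and 104 ± 14.2, 21.2 ± 0.541, 28.5 ± 1.30 and 2.46 ± 0.441 in the SP11 libraries (SD, n = 2 each). Tigit gave 0.38 ± 0.44 (0.744). The median of the 6 was 0.02 against -0.00 over all genes.

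Cd274 in tumour-gated cells gave 1.00 ± 0.41 (adjusted p = 0.265, unadjusted p = 0.0269, edgeR). The myeloid gate genes moved in the same cells: all 13 together stood at 22.8 and 21.2 CPM for the controls and at 183 and 71.2 in the SP11 libraries, with 11, 12, 13 and 13 of the 13 detected. The 3 B gate genes stood at 0.726, 1.37, 47.4 and 25.4. Without the barcodes that also passed an immune gate, Cd274 was at 0.628, 0.530, 1.21 and 1.17, from 6, 5, 13 and 13 UMIs, and its difference was 0.91 (0.482). Without the barcodes that occurred in several libraries it was 0.53 (0.632). The part of immune transcripts in the remaining difference was not tested. Sirpa, a gene of myeloid cells, stood at 1.35, 0.844, 4.48 and 2.14 CPM with all barcodes and 1.15, 0.742, 2.33 and 1.71 without barcodes that passed an immune gate.

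Among the partner genes, H2-Ab1, an MHC class II gene and so a ligand of Lag3, was higher in the tumour-gated sums of the SP11 libraries, at 25.9 and 17.6 CPM against 4.66 and 3.8 in the controls. The difference was 2.24 ± 0.24 (adjusted p = 4.05e-05, edgeR), and 1.78 (0.000807) without barcodes that passed an immune gate. In myeloid-gated cells H2-Ab1 stood at 1748 to 2677 CPM and in B-gated cells, which the controls lacked, at 1513 and 1749. The myeloid and B gate genes moved with it in the tumour-gated cells, as given for Cd274, and their part in the difference was not tested. Of the 42 checkpoint genes 10 were tested and 1 was called, Vsir (VISTA), with 3, 0, 40 and 14 UMIs and a difference of 3.61 ± 0.82 (0.0248). This call was lost without Control 2, at 2.65 (0.266), without SP11 1, at 2.62 (0.176), and in DESeq2, at 3.70 (0.0602). Vsir stood at 125 to 182 CPM in myeloid-gated cells, and without the barcodes that passed an immune gate it fell below the filter.

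In myeloid-gated cells, Cd274 was lower in the SP11 libraries. It was carried by 19 of 38 and 12 of 24 cells in the controls and by 19 of 249 and 38 of 199 in the SP11 libraries, or 360 and 406 CPM against 74.1 and 163. The difference was -1.67 ± 0.38 (adjusted p = 0.0241, edgeR). Over 11 alternative settings it lay between -2.17 and -1.02, with adjusted p between 2.68e-06 and 0.0491. The setting without barcodes of several gates removes tumour-gated barcodes only, so it could not move this value. The top barcode of Control 2 held 8 of its 26 Cd274 UMIs, and without the top barcode of each library the levels were 326, 315, 67.6 and 150. Without barcodes that occurred in several libraries they were 391, 416, 73.3 and 186, from 24, 13, 186 and 127 cells.

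**Figure D3:**
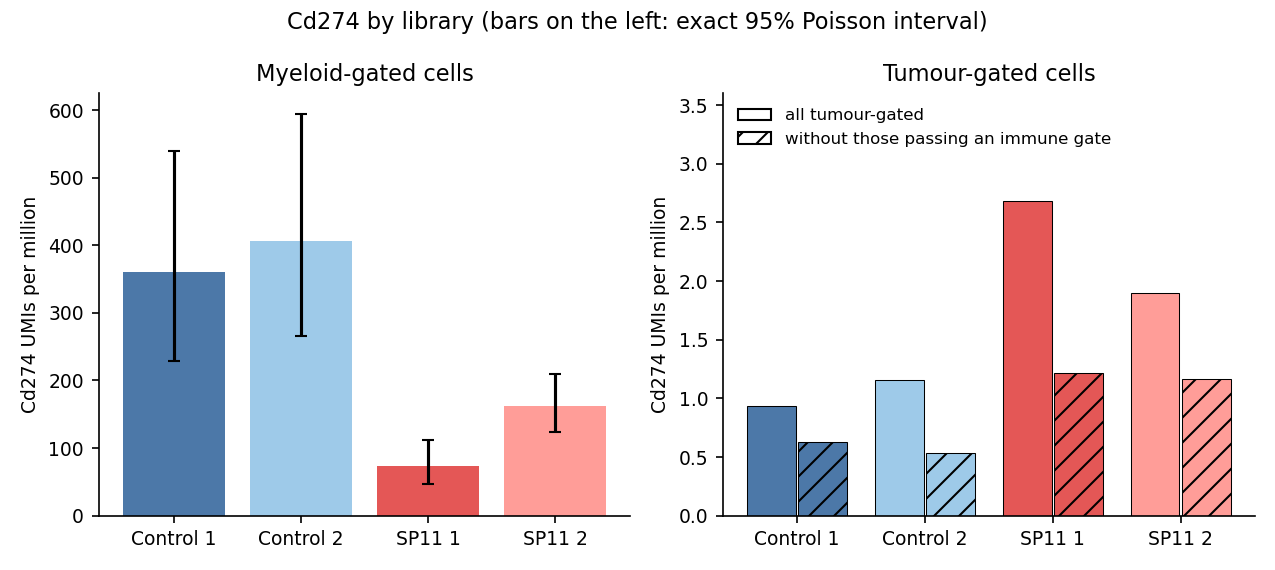
Cd274 CPM by library in myeloid-gated cells (left, with exact 95% Poisson intervals for counting error) and in tumour-gated cells with and without barcodes that also passed an immune gate (right). The controls lie at 360 and 406 and the SP11 libraries at 74.1 and 163 on the left, while on the right the SP11 libraries lie above the controls in both sets of bars.

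Cd274 was 1 of 3 members tested in myeloid-gated cells, where 4.77% of 2686 genes were called. Cd47 gave -0.12 ± 0.32 (adjusted p = 0.882, edgeR) and Lgals9 0.47 ± 0.50 (0.627). Of the 42 checkpoint genes 9 were tested and 1 was called, Entpd1 (CD39, an enzyme that degrades extracellular ATP), with 0, 1, 25 and 49 UMIs and a difference of 3.68 ± 0.96 (0.0403). The Entpd1 call was lost without Control 1, at 2.67 (0.178), under stricter gates, at 3.59 (0.0581), and with a minimum of 500 genes, at 3.36 (0.0788). None of 11 interferon-responsive genes tested was called in edgeR or DESeq2, where 3 and 2 of them had an unadjusted p under 0.05, and their median was -0.47 against 0.03 over all genes.

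The makeup of the myeloid-gated cells differed between groups. Monocyte marker cells (Fn1, Vcan) numbered 3, 6, 105 and 85, cells with C1q transcripts 3, 1, 20 and 3, neutrophil marker cells (S100a8, S100a9, Retnlg) 2, 2, 3 and 39, cells that passed several of these sub-gates 2, 1, 17 and 20, and cells that passed none 28, 14, 104 and 52. In the last group the Cd274 level was 378 and 445 CPM for the controls against 92.3 and 237 for the SP11 libraries. In monocyte marker cells it stood at 249 and 434 against 37.7 and 123, the control values coming from 2 and 9 UMIs. The top barcode of Control 2 held 8 of its 9 UMIs in monocyte marker cells. Without the top barcode of each library the monocyte values were 171 and 72.2 against 30.6 and 105, so the groups overlapped there, and in the cells that passed none they were 330 and 331 against 74.6 and 191. In the smaller sub-gates the groups overlapped with all barcodes included: cells with C1q transcripts stood at 314 and 0 against 196 and 156, cells of several sub-gates at 594 and 0 against 72.0 and 114, and neutrophil marker cells at 0 and 635 against 0 and 244.

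**Figure D4:**
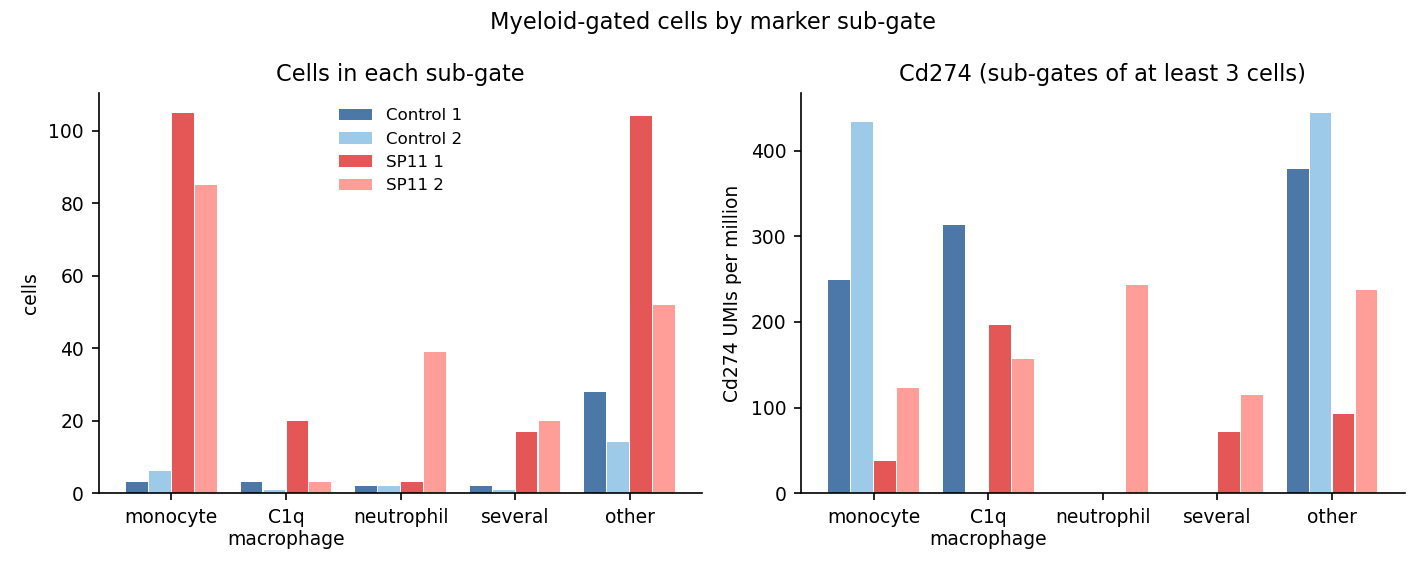
Number of myeloid-gated cells in each marker sub-gate (left) and Cd274 CPM in sub-gates of at least 3 cells (right), by library. In cells outside the named sub-gates Cd274 is at 378 and 445 in the controls and at 92.3 and 237 in the SP11 libraries.

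Whether the treatment difference itself differed between myeloid-gated and tumour-gated cells was tested as an interaction over 8 sums. Cd274 was the only 1 of 6 members called, where 1.03% of 11621 genes were, and its myeloid difference minus its tumour difference was -2.48 ± 0.70 (adjusted p = 0.0414, edgeR). The median over all genes in this contrast was 0.51 and over the 6 members 0.78. This call was lost without Control 1 (-2.47, 0.116), without Control 2 (-2.54, 0.143), without SP11 1 (-1.72, 0.99) and without SP11 2 (-3.39, 0.742), and without barcodes that passed several gates (-2.38, 0.189). Cd47 gave 0.28 ± 0.35 (0.907) and Lgals9 0.70 ± 0.87 (0.907).

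Within the tumour-gated cells, ligand levels were compared between the 25% of cells of each library with the highest share of UMIs on 11 mitotic genes and the 25% with the lowest. None of the 3 members tested was called in edgeR or DESeq2, where edgeR called 24.1% of 9286 genes, and 2 of them had an unadjusted p under 0.05 in edgeR. Cd47 gave -0.17 ± 0.06 (adjusted p = 0.0568), from 108, 107, 93.0 and 116 CPM in the mitotic-high cells and 110, 127, 102 and 118 in the mitotic-low cells. Pvr gave -0.27 ± 0.12 (0.0956) and Cd24a -0.23 ± 0.13 (0.230). Cd47 was called without SP11 2, at -0.21 (0.0375), and without barcodes that occurred in several libraries, at -0.25 (0.018), and Pvr without Control 1, at -0.37 (0.0481). Of 4 partners tested 3 were called: Hmgb1 was higher in the mitotic-high cells, by 0.41, and Lgals3, by 0.16, and H2-Ab1 were lower.

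The share of cells with at least 1 UMI was compared after thinning each tumour-gated cell to 5000 UMIs. Cd47 was found in 38.4%, 43.6%, 37.7% and 45.0% of tumour-gated cells, Pvr in 13.8%, 11.7%, 12.4% and 12.2%, and Cd24a in 11%, 9.2%, 9.82% and 9.22%. Unthinned, Cd47 was in a mean of 71.7% in the controls and 71.5% in the SP11 libraries. Myeloid-gated cells thinned to 500 UMIs held Cd274 in 18.4%, 12.5%, 2.01% and 10.6% of cells, a mean ± SD of 15.5% ± 4.19 over the 2 controls and 6.28% ± 6.04 over the 2 SP11 libraries, with a two-sided exact permutation p of 0.333. This is the smallest p that 2 libraries against 2 allow. Unthinned the means were 50% and 13.4%.

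Of 15 listed ligand-receptor pairs, both sides were detected in 7 in Control 1, 6 in Control 2, 11 in SP11 1 and 14 in SP11 2, where a side counted as detected with at least 4 UMIs from at least 2 cells of a class. Pairs whose receptor was detected in T-, B- or myeloid-gated cells numbered 1, 1, 6 and 10. In SP11 1 they numbered 3 with a minimum of 500 genes, under stricter gates and without barcodes that occurred in several libraries, and the 3 pairs with Havcr2 rested there on 4 UMIs in myeloid-gated cells. In both controls this pair was Cd47 with Sirpa, the receptor having 17 and 12 UMIs in myeloid-gated cells there and 71 and 119 in the SP11 libraries. Both SP11 libraries added Cd24a with Siglecg, whose UMIs in B-gated cells were 25 and 47, Cd274 with Cd80, and Havcr2 in myeloid-gated cells with Lgals9, Ceacam1 and Hmgb1. Cd274 with Pdcd1, Pdcd1lg2 with Pdcd1 and Pvr with Cd96 were detected in SP11 2 alone, and all of these rested on its 83 T-gated cells. Pvr and Nectin2 with Tigit were detected in all 4 libraries, with Tigit in tumour-gated cells only, and Lag3 with Fgl1 in none.

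**Figure D5:**
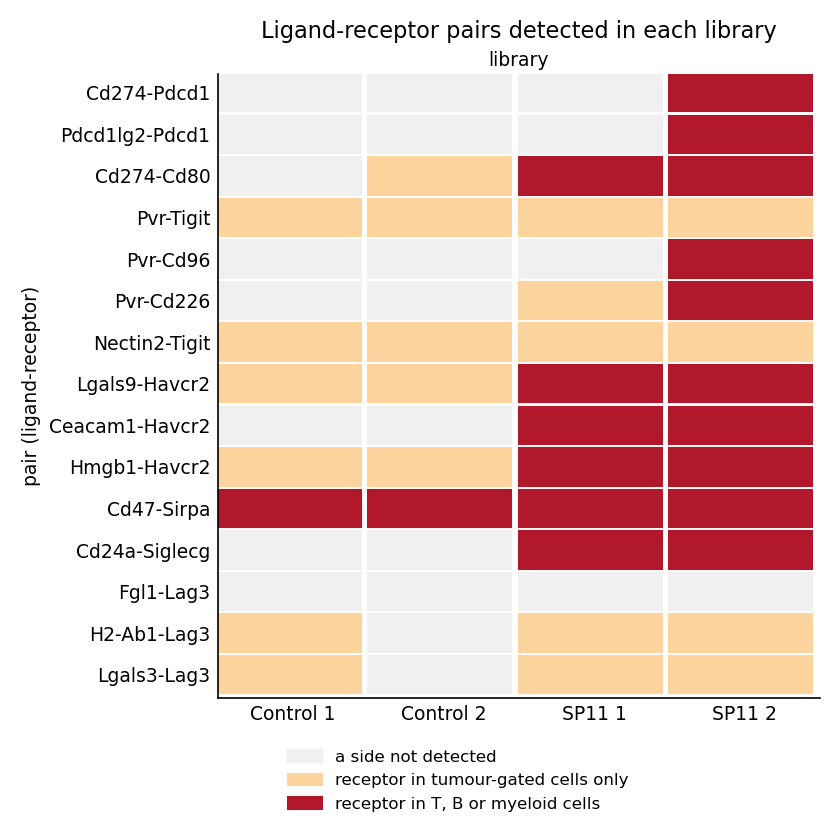
Detection of 15 ligand-receptor pairs in each library: grey where a side was not detected, orange where the receptor was detected in tumour-gated cells only, red where it was detected in T-, B- or myeloid-gated cells. The red squares number 1, 1, 6 and 10 in Control 1, Control 2, SP11 1 and SP11 2.

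These counts moved with depth, and the libraries also differed in immune cells: the controls had 38 and 24 myeloid-gated cells, the SP11 libraries 249 and 199. The part of cell number in the counts was not tested. With every cell thinned to 500 UMIs, both sides were detected in 1, 1, 3 and 3 pairs, and with 1 UMI as the limit in 10, 10, 13 and 14. A receptor not detected in the immune cells of the controls was not detectable at this depth, which does not show that it was absent. A detected pair says that both transcripts were present in the library and not that the proteins met.

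For 6 members with at least 50 UMIs in gated cells, the genes whose level followed them most closely over the 11 class sums were listed by Pearson's r of log2(CPM + 1). These sums share libraries and differ widely in depth, and r is given as a description. Cd274 was followed most closely by Grb2 (r = 0.988), Crlf2 (0.988) and Ctsc (0.984), Cd47 by Cyth1 (0.988), Gng2 (0.988) and the MHC class I gene H2-K1 (0.987), and Lgals9 by Hlcs (0.995), Gpsm3 (0.994) and Gpr146 (0.993). Among the genes listed for Pvr were Zfp142 (0.973) and Slc35a2 (0.970) and among those for Cd24a Ppip5k2 (0.971) and Scfd1 (0.963). Tigit was followed by Hoxa7 (0.994), Snx33 (0.993) and Acacb (0.993). Its r rests largely on 1 UMI, which gave the highest level, 12.1 CPM in T-gated cells of SP11 2. The myeloid- and B-gated sums held no Tigit UMI.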

How the data were processed

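Per the labels, 4 single-cell RNA libraries of DLA tumours were deposited as filtered matrices of UMI counts per gene and barcode. The authors made them with Cell Ranger 7.1.0 (matrix header) on mm10 (submitters' processing notes), and the deposited counts are not normalized. No doublets were called here, and barcodes that passed several immune gates were left out of all classes.

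Barcodes with at least 200 genes and at most 10% mitochondrial UMIs were kept. Gates were Krt8 and Krt18 (5 UMIs, tumour), 6 T genes (2 UMIs), 3 B genes (3 UMIs) and 13 myeloid genes (5 UMIs), immune gates only below 5 keratin UMIs. Barcodes with at least 50% haemoglobin UMIs were set aside. Counts were summed per class and library, since cells are not replicates, and levels are UMIs per 1000000 of that sum (CPM). Tests used edgeR 4.0.16 (quasi-likelihood, TMM, filterByExpr, Benjamini-Hochberg over all genes, threshold 0.05) in R 4.3.3 on sums of at least 20 cells, and limma 3.58.1 as its base. The replicate numbers of the labels were not used as pairs. DESeq2 1.42.0, no filter, other gates and filters, and each library left out were alternatives. A further 1, without barcodes that occurred in several libraries, was chosen after seeing the data. Shares of cells used Python 3.11.15, numpy 2.4.6, pandas 2.3.3 and scipy 1.17.1, and plots matplotlib 3.10.9. Intervals (exact Poisson, Clopper-Pearson, 95%) and the floor of 3 counts cover counting error only. The fits were tested on simulated data.

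Named genes were the 10 members, the partners in the 15 pairs, genes of the 42 checkpoint and 16 interferon-responsive genes that passed a test, the 3 genes most like each member with at least 50 UMIs, and gate markers. Ctla4 in tumour-gated cells and Sirpa beside Cd274 were chosen after their values were seen. The members and lists were chosen with earlier results of these data known. Values of a few genes that this rule names are not reported here.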

Additional observations from a re-analysis of the deposited data

Results flagged for a closer look

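The treatment difference of Cd274 differed between cell classes. It was -1.67 in myeloid-gated cells and 1.00 in tumour-gated cells on the log2 scale, and the interaction over tumour and myeloid sums was -2.48 ± 0.70 (adjusted p = 0.0414, edgeR's quasi-likelihood test), with the median over all genes at 0.51. In SP11 libraries both myeloid sums were below both controls, and both tumour sums were above both controls. At 2 libraries against 2, such a separation has a two-sided exact permutation p of 0.333. The call was lost with any 1 library left out and without barcodes that passed several gates.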

How the results depend on the processing

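With 2 libraries a group, 38 and 24 myeloid-gated cells in the controls and fewer than 100 UMIs per library for most receptors, only large differences could be called, and T- and B-gated cells could not be compared with treatment. Of 390 re-computed gene values, 351 kept their direction and side of the threshold, 23 lost a call, 3 gained one and 13 reversed, and the cause was not tested. The reversals were of values near 0 that were not called: in tumour-gated cells, Cd24a without the filter (0.0088) and at the 20% mitochondrial limit (0.0012), Lgals9 without barcodes of several gates (-0.25) and Pvr without barcodes that occurred in several libraries (-0.071), and in myeloid-gated cells Cd47 without the filter (0.034). Leaving out 1 library at a time gave -0.0064 to 0.69 for Tigit, -0.12 to 0.12 for Cd24a, -0.21 to 0.26 for Lgals9 and -0.051 to 0.075 for Pvr in tumour-gated cells, and -0.28 to 0.16 for Cd47 in myeloid-gated cells.

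The Cd274 interaction was not called with a minimum of 500 genes (-2.32, adjusted p = 0.133) or without barcodes of several gates (-2.38, 0.189), so that 0 members were called in each, and 0 with any library left out (-3.39 to -1.72). Over its 10 alternatives the adjusted p ranged from 0.0191 to 0.99. Mitotic members called numbered 1 without barcodes that occurred in several libraries and 0 to 1 with a library left out. The class fit called 7 members between myeloid- and tumour-gated cells without the filter, and 3 to 5 between T- and tumour-gated cells with a library left out. Could not be fitted: any T-gated contrast without SP11 2, and the myeloid and interaction fits without barcodes that occurred in several libraries, where Control 2 kept 13 myeloid-gated cells.

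Pairs with both sides detected fell to 1, 1, 3 and 3 in cells thinned to 500 UMIs. With at least 10 UMIs from at least 5 cells they were 3 in Control 2, 7 in SP11 1 and 8 in SP11 2. In Control 2 they were 10 with 1 UMI and 3 without barcodes that occurred in several libraries. Differences in shares of cells (percentage points) reversed without thinning for Cd47 (-0.26), Cd24a (2.90) and Pvr (3.21) in tumour-gated and Lgals9 (-2.46) in myeloid-gated cells, with at least 2 UMIs for Cd47 (-0.16) and Pvr (0.042), and under stricter gates for Lgals9 (-0.061) in tumour-gated cells.

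The replicate numbers are shared by the groups, but same-numbered libraries deviated together only weakly (r = 0.119 over 11588 genes in tumour-gated and 0.0783 over 2686 in myeloid-gated cells), and with 2 pairs they were not taken as pairs. With a replicate block the calls among members stayed 0 in tumour-gated cells (Cd274 0.99, Cd24a 0.00081) and 1 in myeloid-gated cells (Cd274 -1.73), while genes called rose from 268 to 1038 and from 128 to 272. Over all genes, tumour calls were 149 in DESeq2, 78 without Control 2 and 425 without SP11 2. Interaction calls were 55 in DESeq2, 72 without Control 2, 0 without SP11 1 and 8 without SP11 2, against 120. Mitotic calls were 897 in DESeq2 against 2237. Class calls without SP11 2 were 2833 against 4418 (myeloid and tumour) and 1054 against 3200 (B and tumour), 1090 against 1731 in DESeq2 (T and tumour), and 843 and 320 against 1528 without SP11 1 and SP11 2 (B and myeloid).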

Other observations

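Cells outside the 4 classes carried some checkpoint transcripts. The 36 barcodes of SP11 2 with mostly haemoglobin UMIs held 17 Cd274 UMIs in 6 barcodes, or 169 CPM, while the 36 of SP11 1 held none. In SP11 1 the 22 barcodes that passed several immune gates held 10 Cd274 UMIs in 4 barcodes, or 257 CPM, and the 13 of SP11 2 held 1. The barcodes in no gate held 2, 0, 3 and 5 Cd274 UMIs in Control 1, Control 2, SP11 1 and SP11 2.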
